A study of Arabidopsis thaliana with 121 samples.

Results

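The cdca7α-1 line of Arabidopsis thaliana carries a T-DNA, a stretch of bacterial plasmid DNA used as an insertional mutagen, in the promoter of CDCA7α (AT4G37110), and its rosette leaf transcripts were compared here with those of the Col-0 wild type (WT) and, as a second look at the same insertion, between ddm1 cdca7α-1 double mutants and ddm1. The libraries were chosen by their sample labels: 3 of cdca7α-1, 3 of WT and 2 of ddm1 cdca7α-1, together 8 of the 121 libraries of the series, and 2 libraries of ddm1 served as the reference of the double mutant. All were 3′-tag mRNA-seq libraries, in which each molecule gives a read near its poly(A) tail, made from pools of 3 plants of 31 days, so the spread between replicates is the spread between such pools. WT and cdca7α-1 are Col-0 plants without another listed mutation. The ddm1 reference (labelled ddm1_2_G2) carries the ddm1-2 allele in the 2nd homozygous generation, after repeated backcrossing to Col-0, and ddm1 cdca7α-1 carries ddm1-2 together with the same T-DNA insertion, also with ddm1-2 in the 2nd generation. The double mutant came from a cross, so differences of the cdca7α-1 line elsewhere in the genome need not be present in it. Each genotype is 1 line, so an effect of the insertion and any other difference fixed in that line cannot be told apart. In bulk leaf RNA, fewer cells of a type and less RNA per cell cannot be told apart either.

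CDCA7 proteins are zinc-finger proteins that work with the SNF2 nucleosome remodeller DDM1 (HELLS in animals). Remodelling gives the methylation machinery access to DNA wrapped in nucleosomes, and it is needed to keep cytosine methylation at CG sites of transposable elements (TEs) and of genes silenced like them. Plants that lose DDM1 lose this methylation over generations, many TEs are then transcribed, and the lost methylation can be inherited for generations after DDM1 is restored. A T-DNA in a promoter can lower, raise or leave unchanged the transcript of the gene beside it, so the level of CDCA7α itself was read first.

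The 5 stretches of reference sequence printed here show where the genes lie and how many CG sites are there. Whether any change depends on these sites was not tested. CDCA7α lies on the minus strand at chr4:17484030-17486400 and SMP2 on the plus strand at chr4:17486516-17489354, so the annotated starts of these 2 genes face away from each other across a gap of 115 bases, chr4:17486401-17486515. The position of the T-DNA was not read from the files, which hold locus names only. The sequences come from RefSeq (TAIR10.1), are printed 5′ to 3′ on the strand of the named gene (minus for CDCA7α, AT5G24240 and MRD1, plus for AT1G64795 and AT2G01422), and have every CG in capitals.
CDCA7α-SMP2 gap: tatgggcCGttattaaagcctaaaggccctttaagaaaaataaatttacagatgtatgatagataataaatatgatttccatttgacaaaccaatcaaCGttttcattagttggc
AT1G64795 gene: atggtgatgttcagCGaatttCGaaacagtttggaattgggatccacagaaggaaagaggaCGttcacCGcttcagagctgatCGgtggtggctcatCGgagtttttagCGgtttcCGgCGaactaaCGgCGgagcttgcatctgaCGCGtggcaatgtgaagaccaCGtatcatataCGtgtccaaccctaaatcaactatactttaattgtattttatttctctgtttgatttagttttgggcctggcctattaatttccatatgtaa
AT5G24240 upstream: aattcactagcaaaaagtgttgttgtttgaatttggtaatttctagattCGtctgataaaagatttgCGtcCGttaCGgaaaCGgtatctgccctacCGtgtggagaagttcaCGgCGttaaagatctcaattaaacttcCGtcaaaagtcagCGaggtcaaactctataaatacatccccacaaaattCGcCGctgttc
MRD1 upstream: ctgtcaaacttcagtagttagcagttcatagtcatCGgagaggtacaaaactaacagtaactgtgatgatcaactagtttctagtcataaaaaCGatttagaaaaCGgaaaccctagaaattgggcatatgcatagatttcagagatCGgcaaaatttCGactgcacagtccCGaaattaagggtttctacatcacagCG
AT2G01422 upstream: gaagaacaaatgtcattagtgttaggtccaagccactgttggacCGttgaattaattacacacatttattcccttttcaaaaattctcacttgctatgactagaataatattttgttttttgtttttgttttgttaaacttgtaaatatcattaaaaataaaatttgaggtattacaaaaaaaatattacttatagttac

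The gap between CDCA7α and SMP2 held 2 CG sites, and 63.1% of all genes had at least as many in an equally long stretch before their start. The whole AT1G64795 gene, chr1:24082579-24082848, held 15 CG sites in 270 bases, and 14.2% of genes had at least as many in the same length after their start. The 200 bases before AT5G24240, chr5:8234151-8234350, held 12, which 3.4% of genes reached. The 200 bases before MRD1, chr1:19964713-19964912, held 7 (reached by 21% of genes), and those before AT2G01422, chr2:183740-183939, held 1 (reached by 94.2%). CG reads the same on both strands, and a count of CG letters says nothing of whether they are methylated, which these RNA libraries do not measure. AT1G64795 lies inside the annotated ILA gene (AT1G64790), which runs on the opposite strand. MRD1 overlaps AT1G53490 on the opposite strand and AT1G07887, AT5G24240 overlaps AT5G24230, and the stretch before AT2G01422 overlaps AT2G01420. The 200 bases before MRD1 lie wholly within AT1G53490. The counts used here were assigned by strand, but genes that overlap on 1 strand can share reads.

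The libraries held 2213432 to 4250663 estimated counts, of which plastid transcripts took 7.29% to 26.5%. TEs took 0.24% to 0.429% of the counts in WT and cdca7α-1, and 3.31% to 4.67% in ddm1 and ddm1 cdca7α-1. Before any result, 1 library of each group of 3 stood apart from the other 5. The third cdca7α-1 library had 32 features at least 4-fold above all others, against 7 in each of the other cdca7α-1 libraries. The third WT library had 42 features at least 4-fold below all others, against 4 and 6 in the other WT libraries. The features high in the third cdca7α-1 library included NIT2 (AT3G44300, a nitrilase), with 35, 118 and 9 reads in WT and 44, 141 and 1301 in cdca7α-1, and GSTU9 (AT5G62480, a glutathione transferase), with 9, 8 and 1 in WT and 12, 16 and 291. Both are named here because of these values. The mesophyll marker transcripts summed to 9917 to 31004 CPM (counts scaled to equal library totals after TMM normalization) in WT and to 8000 to 33463 in cdca7α-1. Both root markers had 0 reads in these 6 libraries.

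In the cdca7α-1 line the CDCA7α transcript was not lower than in WT. It rose. The 3 WT libraries held 2, 0 and 5 CDCA7α reads, and the 3 cdca7α-1 libraries 41, 49 and 66, or 0.627 ± 0.733 against 13.4 ± 1.14 CPM (SD, n = 3 each). Every cdca7α-1 library lay far above every WT library, and the cdca7α-1 libraries lay close together. The log2 fold change was 4.36 (SE 0.64, Benjamini-Hochberg adjusted p = 0.00203, edgeR quasi-likelihood test over 17943 features). With so few WT reads the fitted fold depends on the counts at the floor of detection, and the ratio of the summed reads per total was 21.4, with an exact 95% interval of 10.2 to 54.2 that covers counting error only. The reads lie near the 3′ end of the transcript, so they count transcripts that end at CDCA7α and do not show where these begin, nor whether they make the protein.

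The same insertion was read again in the ddm1 background. The 2 ddm1 libraries held 12 and 18 CDCA7α reads, and the 2 ddm1 cdca7α-1 libraries 33 and 38, or 4.4 ± 1.86 against 13.9 ± 3.48 CPM (SD, n = 2 each). Both ddm1 cdca7α-1 libraries lay above both ddm1 libraries and to either side of the cdca7α-1 range. The log2 difference was 1.66 (SE 0.64, unadjusted p = 0.0157), which did not pass the test after adjustment (adjusted p = 0.313, edgeR with Benjamini-Hochberg adjustment). The ratio of the summed reads was 3.19 (2.06 to 5.07, counting error only). The ddm1 reference was itself higher than WT by 2.76 on the log2 scale (SE 0.71, adjusted p = 0.00851, edgeR with Benjamini-Hochberg adjustment), in a comparison that called 14.6% of all features and shares the WT libraries with the first. The difference between the 2 insertion effects, 2.70 on the log2 scale, did not pass (unadjusted p = 0.00636, adjusted p = 0.757, edgeR with Benjamini-Hochberg adjustment), so a smaller effect in ddm1 was not shown. Averaged over both backgrounds, a contrast added after the values were seen, the log2 difference was 3.01 (SE 0.46, adjusted p = 0.00439, edgeR with Benjamini-Hochberg adjustment). That contrast called 4 features (0.0223%), 3 of them higher (0.0167%): CDCA7α, AT1G64795 (5.37) and AT5G44572 (1.48). The fourth was AT5G24240 at -2.84, a mean of 1 effect of -6.24 and 1 of 0.55. Without the first ddm1 library the calls of CDCA7α, AT5G44572 and AT5G24240 were lost (adjusted p = 0.155, 0.155 and 0.241, edgeR with Benjamini-Hochberg adjustment), and without the other ddm1 library AT1G64795 was at 9.17. Fitting only the compared libraries ended all 4 calls, and the test against 2-fold left AT1G64795 alone.

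Over all 16 genotypes of the data set, cdca7α-1 and ddm1 cdca7α-1 had the highest mean CDCA7α levels. Next came ddm1 (2nd generation) with 4.4 CPM, ddm1 of the 5th generation with 3.5 ± 1.83 (SD, n = 3) and the cdca7β-2 line with 3.12 ± 1.49 (SD, n = 2), whose libraries overlapped each other. In cdca7α-2, an insertion in the coding sequence, the 2 libraries held 0 and 3 reads (0.316 ± 0.447 CPM), within the WT range, with a log2 difference from WT of -1.04 (SE 0.97, adjusted p = 0.731, edgeR with Benjamini-Hochberg adjustment). With WT already at 0 to 5 reads, this depth could not have shown a loss. CDCA7β, the second CDCA7 gene of Arabidopsis, had 0 reads in WT and cdca7α-1, and DDM1 had 1 read in each cdca7α-1 library, so neither was tested.

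**Figure D1:**
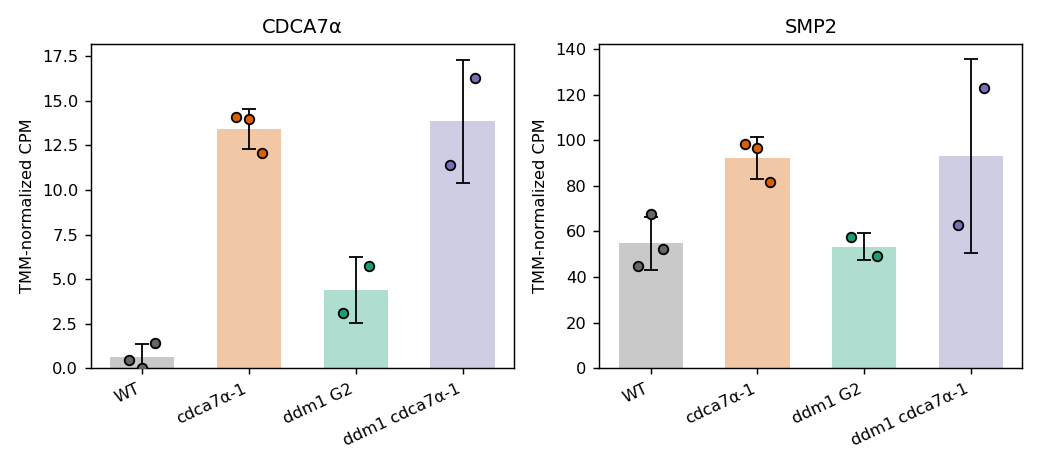
CDCA7α and its neighbour SMP2 in WT, cdca7α-1, ddm1 (2nd generation) and ddm1 cdca7α-1, in CPM on linear axes that start at 0. Dots are libraries, bars are means and error bars are SD. CDCA7α lies between 12.1 and 14.1 CPM in the 3 cdca7α-1 libraries and at or below 1.43 in WT.

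The gene on the other side of the gap, SMP2, a step II splicing factor, was measured next. SMP2 had 200, 235 and 183 reads in WT and 287, 339 and 447 in cdca7α-1, or 44.7 to 67.5 against 81.6 to 98.4 CPM. In the ddm1 background it had 224 and 155 reads in ddm1 and 182 and 287 in ddm1 cdca7α-1, or 49.2 to 57.6 against 63 to 123 CPM. In both backgrounds every library with the insertion lay above every library without it. The log2 differences were 0.75 (SE 0.21, unadjusted p = 0.00162) and 0.80 (SE 0.26, unadjusted p = 0.00527), and neither passed after adjustment over all features (adjusted p = 1 and 0.239, edgeR with Benjamini-Hochberg adjustment).

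The 10 annotated genes on each side of CDCA7α were read in the same way, 9 of which had enough reads to be tested. None was called in either background, and their median log2 difference was -0.03 in the WT background and -0.07 in ddm1, against 0.00 and 0.03 over all features. AT4G37130, the gene after SMP2, which encodes a hydroxyproline-rich glycoprotein family protein, had 25 to 29 reads in WT and 31 to 66 in cdca7α-1 (6.48 to 8.32 against 8.85 to 12.1 CPM). Its log2 differences were 0.57 (unadjusted p = 0.0121) and 0.32 (unadjusted p = 0.237), and its groups did not overlap in either background. MES9, a methyl esterase 4 genes from CDCA7α, had 1 to 3 reads in WT and 3 to 24 in cdca7α-1, and 0 in both ddm1 libraries against 2 and 10 in ddm1 cdca7α-1, with CPM ranges that did not overlap in either background. On the other side of CDCA7α, MAP1D, a methionine aminopeptidase, had log2 differences of -0.09 and -0.45, and the gene nearest to CDCA7α there, AT4G37100, had 0 reads in all 10 libraries. Groups failed to overlap in 3 of the 9 tested neighbours in the WT background, where 2.32% of all features had every cdca7α-1 library above every WT library and 2.53% had every one below. In the ddm1 background, with 2 libraries against 2, 6 of the 9 did not overlap, against 19.6% of all features above and 18.5% below.

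**Figure D2:**
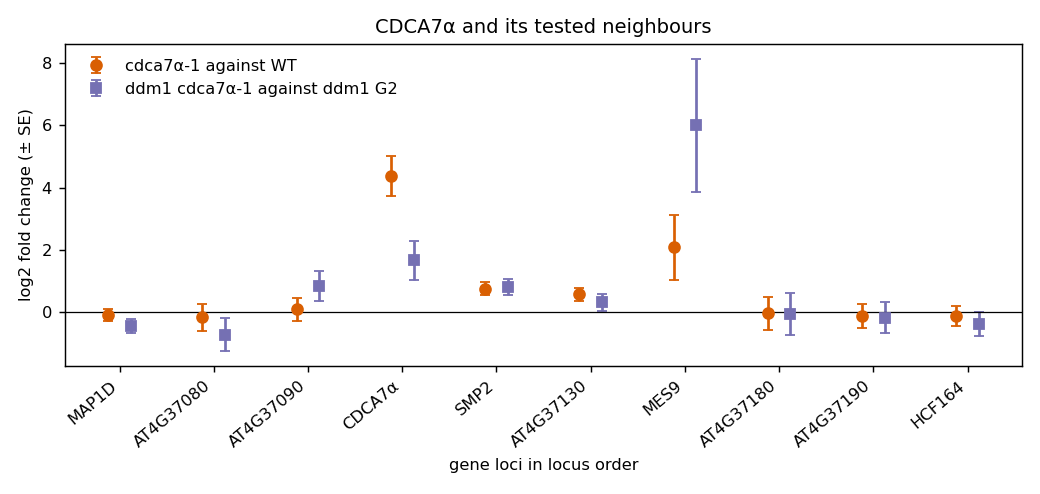
Genes in annotated order around CDCA7α (10 on each side), with the log2 difference of cdca7α-1 from WT and of ddm1 cdca7α-1 from ddm1, for those with enough reads to be tested. Points are the fitted values and bars the standard errors, and the ddm1 value of MES9, fitted against 0 reads, is no bound. SMP2, the next gene, is at 0.75 and 0.80, and no neighbour passed the test after adjustment.

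Few other features were called in cdca7α-1. Of 17943 features tested, 7 (0.039%) passed an adjusted p of at most 0.1 and a change of at least 2-fold, 3 of them (0.0167%) higher, CDCA7α, AT1G64795 and SOT12, and 4 (0.0223%) lower, AT5G24240, MRD1, AT2G01422 and the TE AT3TE51150. No TE was called higher in the edgeR test, and DESeq2 called 0. At an unadjusted p under 0.05, 30 of the 978 tested TEs were higher in cdca7α-1 and 20 lower. Over all 17943 features 228 were higher and 203 lower at that threshold, together 431 (2.4%). Of the 978 TEs, 750 were called higher in ddm1 than in WT, a share in part set by the filter, which 978 of 31188 TEs passed. The filter counted all 39 libraries, so a TE with few reads in WT could enter through the ddm1 genotypes. A rise of such a TE in cdca7α-1 could have been missed. In ddm1 cdca7α-1 against ddm1, 1 feature was called (0.00557%), AT5G44572, which was higher, and none was lower in edgeR, whereas 2129 features (11.9%) had an unadjusted p under 0.05 and DESeq2 called 46 genes higher and 145 lower.

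**Figure D3:**
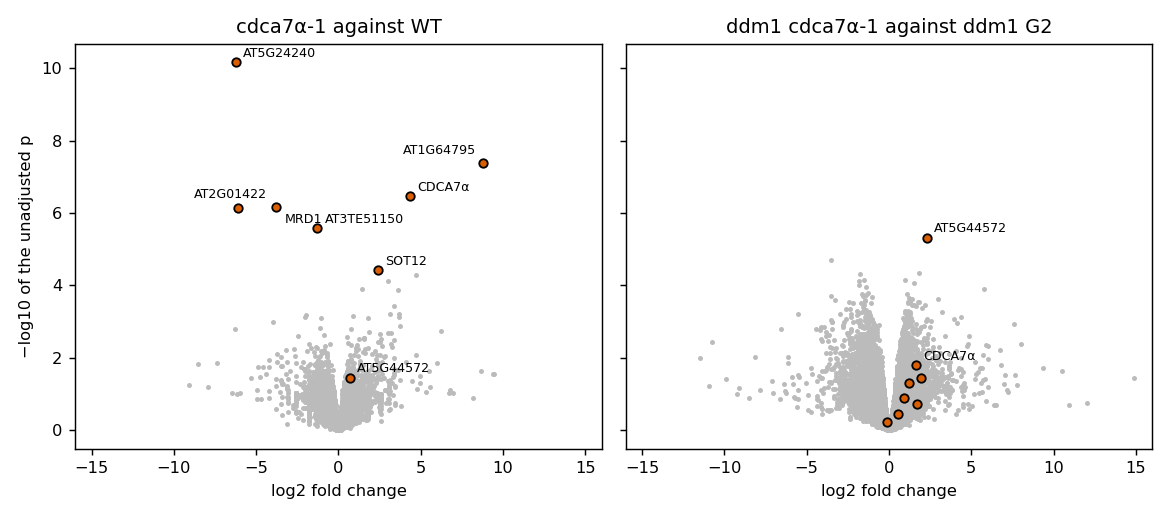
Fitted log2 fold change (horizontal axis) against the negative log10 of the unadjusted p (vertical axis) for the 17943 tested features, in cdca7α-1 against WT (left) and ddm1 cdca7α-1 against ddm1 (right). Orange points are the 8 loci called in either comparison, 7 of them in the WT background, and the calls follow from the values on these axes. SOT12 lies at nearly the same p as AT5G24640, which was not called (unadjusted p = 3.85e-05 and 5.07e-05, edgeR).

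The largest rise was at AT1G64795, an uncharacterized short gene on the plus strand inside ILA, a HEAT repeat protein gene of plant immunity. WT held 1, 0 and 1 reads and cdca7α-1 held 272, 408 and 371, or at most 0.287 against 67.7 to 116 CPM. The transcript was at the floor of detection in WT and among the well-measured ones in every cdca7α-1 library. The log2 fold change was 8.79 (SE 1.1, adjusted p = 0.000373, edgeR with Benjamini-Hochberg adjustment), and the ratio of summed reads was 506, with a counting interval of 140 to 4182. In the ddm1 background the reads were 0 and 44 in ddm1 and 76 and 61 in ddm1 cdca7α-1. Both double mutant libraries were above both ddm1 libraries, but the ddm1 libraries differed from each other more than the double mutant libraries did, with 0 and 14 CPM against 26.3 and 26.2. The log2 difference of 1.95 (SE 0.88) did not pass (unadjusted p = 0.0368, adjusted p = 0.395, edgeR with Benjamini-Hochberg adjustment). The host gene ILA itself had 121 reads in WT and 135 in cdca7α-1 summed over libraries, a ratio of 1.07 (0.834 to 1.38, counting error only).

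AT1G64795 was almost silent in the other genotypes. Outside cdca7α-1 (92.5 ± 24.4 CPM, SD, n = 3) and ddm1 cdca7α-1 (26.3 ± 0.049, n = 2), more than 3 reads were found in 1 ddm1 library (44 reads) and 1 ddm1 cdca7α cdca7β-1 library (13 reads). In cdca7α-2 the 2 libraries held 0 and 1 read. ddm1 of the 5th generation held 2 to 3 reads in each of its 3 libraries.

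AT5G24240, annotated as a phosphatidylinositol 4-kinase gamma-like gene, had the smallest adjusted p of all features. WT held 152, 112 and 58 reads and cdca7α-1 held 1, 0 and 3, or 16.6 to 34 CPM against at most 0.548. Every cdca7α-1 library was near 0 and every WT library well above it. The gene fell by 6.24 on the log2 scale (SE 0.60, adjusted p = 1.25e-06, edgeR with Benjamini-Hochberg adjustment), and WT held 83.6 times as many reads per total (32.4 to 309, counting error only). In ddm1 the reads were 22 and 5, and in ddm1 cdca7α-1 they were 20 and 9, so these groups overlapped, with a log2 difference of 0.55 (SE 0.59, unadjusted p = 0.358). The 2 insertion effects differed by -6.79 (SE 0.88, adjusted p = 0.000496, edgeR with Benjamini-Hochberg adjustment), a test that called 2 features (0.0111%). With transcripts not summed, neither the fall (-6.71, adjusted p = 1) nor the difference between the effects (-6.67, adjusted p = 0.887, edgeR with Benjamini-Hochberg adjustment) passed. The difference between the effects also did not pass when only the compared libraries were fitted (adjusted p = 0.752, edgeR with Benjamini-Hochberg adjustment). ddm1 was itself lower than WT by 2.88 on the log2 scale (adjusted p = 0.000181, edgeR with Benjamini-Hochberg adjustment), with 1.59 to 5.66 CPM in its libraries.

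MRD1 (mto1 responding down), named for its low transcript in a methionine over-accumulation mutant, held 79, 39 and 25 reads in WT and 2, 2 and 6 in cdca7α-1, or 7.16 to 17.7 CPM against 0.571 to 1.1. The groups were far apart. It fell by 3.82 on the log2 scale (SE 0.59, adjusted p = 0.00268, edgeR with Benjamini-Hochberg adjustment), and WT held 14.9 times as many reads per total (7.85 to 31.7). In the ddm1 background the order was the other way, with 26 and 8 reads in ddm1 and 28 and 29 in ddm1 cdca7α-1 (2.54 to 6.69 against 9.69 to 12.5 CPM), a log2 difference of 1.23 that did not pass (SE 0.60, unadjusted p = 0.0507, adjusted p = 0.423, edgeR with Benjamini-Hochberg adjustment). The difference between the 2 effects, -5.04 (SE 0.86), was called (adjusted p = 0.0246, edgeR with Benjamini-Hochberg adjustment), but leaving out single libraries gave adjusted p-values of 0.0136 to 0.293, and 6 of 10 such fits called it. Fitting only the compared libraries also ended this call (adjusted p = 0.752, edgeR with Benjamini-Hochberg adjustment).

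AT2G01422, annotated as a non-coding RNA, held 349, 129 and 50 reads in WT and 3, 0 and 4 in cdca7α-1, or 14.3 to 78 CPM against at most 1.03. WT itself varied widely, but no cdca7α-1 library came near its lowest value. It fell by 6.12 on the log2 scale (SE 0.96, adjusted p = 0.00268, edgeR with Benjamini-Hochberg adjustment), with 78.4 times as many reads per total in WT (37.8 to 196). In ddm1 it was also low, with 5 and 3 reads in ddm1 and 17 and 3 in ddm1 cdca7α-1, groups that overlapped in reads and did not differ in the test (log2 difference 1.68, SE 1.24, unadjusted p = 0.187). The difference between the 2 effects was -7.81 and did not pass (adjusted p = 0.237, edgeR with Benjamini-Hochberg adjustment).

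These 3 genes were then read in the other lines. AT5G24240 had 27.6 CPM in WT on average, 24.4 and 31.2 in the 2 cdca7β lines and 29.4 in cdca7α cdca7β-2. It had 0.297 in cdca7α-1, 0.894 in cdca7α-2 and 0.643 in cdca7α cdca7β-1, which carries the cdca7α-2 insertion. cdca7α-2 was lower than WT by 4.89 on the log2 scale (adjusted p = 7.65e-05, edgeR with Benjamini-Hochberg adjustment), in a comparison that called 1.95% of features and shares the WT libraries with that of cdca7α-1. MRD1 had 0.784 ± 0.276 CPM in cdca7α-1 and 0.789 ± 0.221 in cdca7α-2, with 4.61 to 25.4 on average in every other genotype, 10.6 in cdca7α cdca7β-1 among them. cdca7α-2 was lower than WT in MRD1 by 3.85 on the log2 scale (adjusted p = 0.00342, edgeR with Benjamini-Hochberg adjustment). AT2G01422 had 0.586 ± 0.529 CPM in cdca7α-1, 0.316 in cdca7α-2 and 0.355 in cdca7α cdca7β-1, against 43.1 ± 32.3 in WT, 75.2 and 6.94 in the cdca7β lines, 44.5 in cdca7α cdca7β-2, and 0.164 to 9.46 on average in the genotypes with ddm1-2. Its log2 difference between cdca7α-2 and WT was -7.12 (adjusted p = 0.00302, edgeR with Benjamini-Hochberg adjustment).

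The 3 genes that fell in cdca7α-1, where CDCA7α rose, were thus also lower in cdca7α-2, where CDCA7α was at 0 to 3 reads. Where ddm1 was compared at the 1st generation with and without the cdca7α-2 insertion, none of the 3 was called, with log2 differences of -1.1 (AT5G24240), -0.03 (MRD1) and -2.59 (AT2G01422). By contrast AT1G64795 had a log2 difference of -0.73 from WT in cdca7α-2 (adjusted p = 0.953, edgeR with Benjamini-Hochberg adjustment), at 1 read in all.

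**Figure D4:**
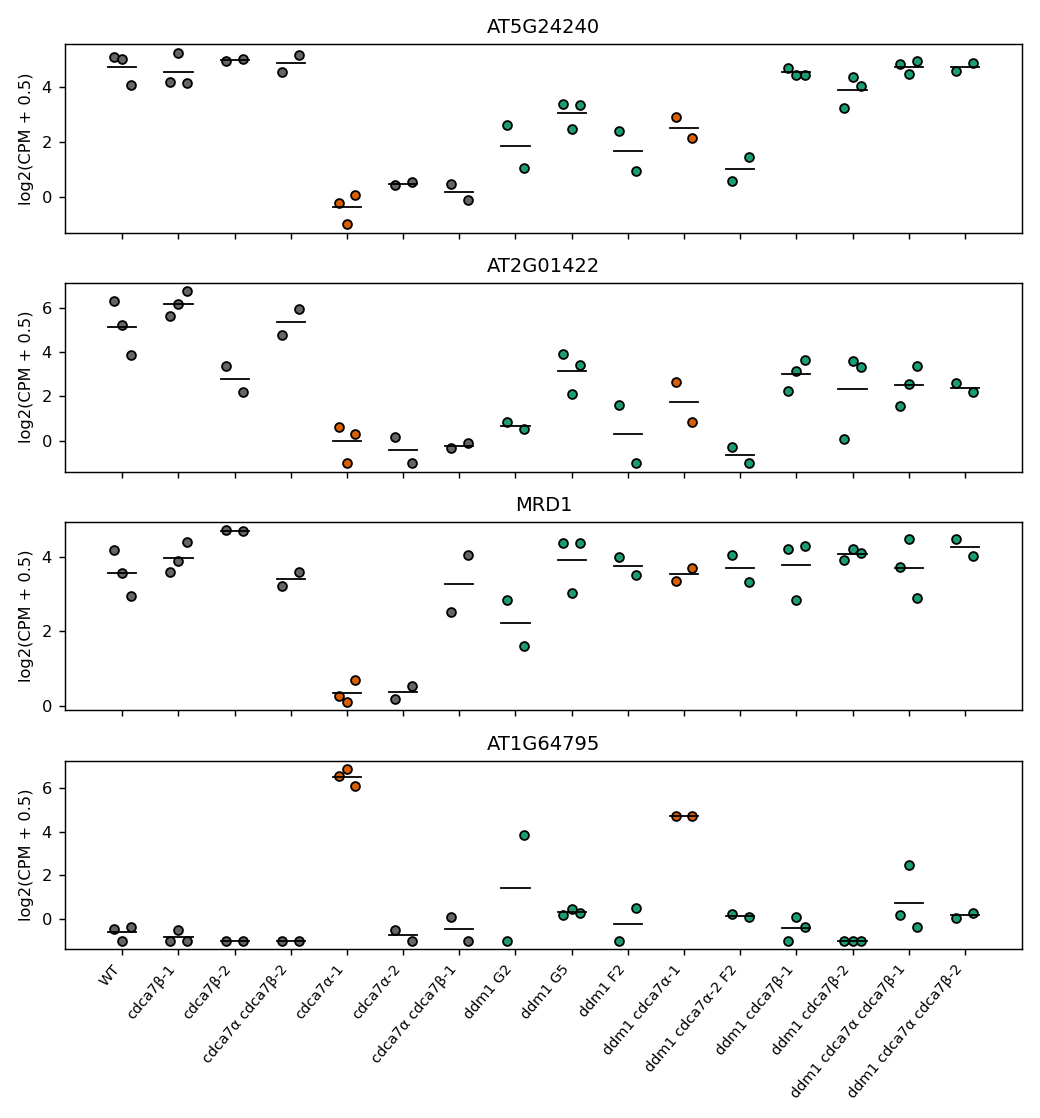
Levels of AT5G24240, AT2G01422, MRD1 and AT1G64795 in all 39 libraries of the 16 genotypes, as log2 of (CPM + 0.5). Dots are libraries (orange with the cdca7α-1 insertion, green with ddm1-2, grey the others), lines are group means, and ddm1 G2, G5 and F2 are the 2nd, 5th and 1st generation. AT1G64795 is high in cdca7α-1 and ddm1 cdca7α-1 and in 1 ddm1 library, and MRD1 is lowest in cdca7α-1 and cdca7α-2.

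The TE AT3TE51150 held 310, 197 and 260 reads in WT and 89, 100 and 125 in cdca7α-1, or 56.6 to 74.5 CPM against 22.8 to 30.5. The groups did not overlap, and it fell by 1.29 on the log2 scale (SE 0.22, adjusted p = 0.00803, edgeR with Benjamini-Hochberg adjustment). Without the third cdca7α-1 library the difference was -1.19 and no longer passed (adjusted p = 0.126, edgeR with Benjamini-Hochberg adjustment). ddm1 and ddm1 cdca7α-1 held 259 and 233 against 159 and 167 reads, 66.6 to 74 against 55 to 71.8 CPM, which overlapped (log2 difference -0.15, unadjusted p = 0.573). In cdca7α-2 it was lower than WT by 1.32 (adjusted p = 0.0082, edgeR with Benjamini-Hochberg adjustment), at 26.6 ± 7.55 CPM against 27.3 ± 4 in cdca7α-1, while cdca7α cdca7β-1 stood at 64.9 ± 6.84.

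SOT12, a sulfotransferase whose substrates include salicylic acid, was the weakest of the calls. It held 40, 75 and 32 reads in WT and 104, 143 and 720 in cdca7α-1, or 8.94 to 21.5 against 35.7 to 131 CPM. All cdca7α-1 libraries were above all WT libraries, and the third was far above the other 2. The log2 fold change was 2.40 (SE 0.49, adjusted p = 0.0987, edgeR with Benjamini-Hochberg adjustment), and without the third library it was 1.53 (adjusted p = 1, edgeR with Benjamini-Hochberg adjustment). In ddm1 the reads were 123 and 47, and in ddm1 cdca7α-1 106 and 119, a log2 difference of 0.91 (unadjusted p = 0.128).

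AT5G44572, uncharacterized, was the feature called in the ddm1 background. It held 21 and 14 reads in ddm1 and 60 and 65 in ddm1 cdca7α-1, or 4.44 to 5.4 against 20.8 to 27.9 CPM, and 55, 68 and 27 in WT against 63, 74 and 110 in cdca7α-1 (7.74 to 19.5 against 20.1 to 21.6 CPM). Libraries with the insertion were above those without it in both backgrounds. The log2 fold changes were 2.29 in ddm1 (SE 0.40, adjusted p = 0.0858, edgeR with Benjamini-Hochberg adjustment) and 0.67 in the WT background (SE 0.30, unadjusted p = 0.0351). Leaving out any 1 of the 4 libraries ended the call in ddm1, with adjusted p-values of 0.105 to 0.557. The ddm1 reference was the lowest of all 16 genotypes for this gene, at 4.92 ± 0.678 CPM, and ddm1 of the 5th generation had 16.9 ± 4.65.

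**Figure D5:**
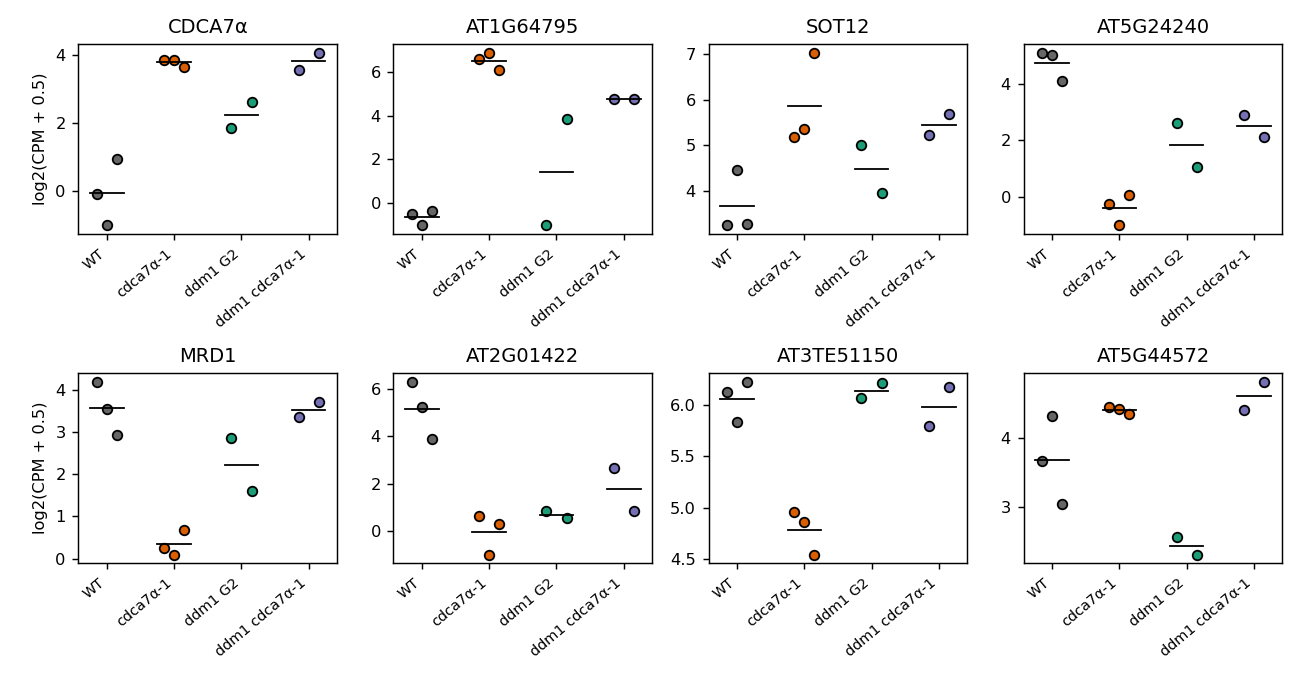
The 8 loci called in either comparison, each as log2 of (CPM + 0.5) in WT, cdca7α-1, ddm1 (ddm1 G2) and ddm1 cdca7α-1. Dots are libraries, lines are group means, and each panel has its own vertical scale. AT5G24240, MRD1 and AT2G01422 are low in cdca7α-1 with no overlap with WT, and AT5G44572 separates ddm1 from ddm1 cdca7α-1.

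Just outside the threshold lay AT5G24640, uncharacterized, with 2, 2 and 2 reads in WT, 14, 11 and 189 in cdca7α-1, 0 and 2 in ddm1 and 10 and 12 in ddm1 cdca7α-1. Its log2 difference was 4.69 (adjusted p = 0.114, edgeR with Benjamini-Hochberg adjustment), and the third library held most of its reads. AT1G75945 followed, at 3.00 (adjusted p = 0.148, edgeR with Benjamini-Hochberg adjustment).

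Features were also sorted by whether every library with the insertion lay on 1 side of every library without it in both backgrounds. 114 features (0.635%) were higher in both, 87 (0.485%) lower in both and 126 (0.702%) had opposite directions. With a difference of at least 2-fold in both backgrounds, 29 (0.162%) were higher and 15 (0.0836%) lower. The examples that follow were picked after their values were seen. PR1 (AT2G14610), a salicylic acid marker of defence, held 23, 61 and 5 reads in WT and 151, 70 and 431 in cdca7α-1, and 3 and 40 in ddm1 against 252 and 112 in ddm1 cdca7α-1 (log2 differences 2.66 and 3.37, unadjusted p = 0.0127 and 0.0129, neither passing after adjustment). UGT74E2 (AT1G05680), a glucosyltransferase of indole-3-butyric acid, held 21, 12 and 2 reads in WT and 38, 37 and 496 in cdca7α-1, with log2 differences of 3.68 and 2.32. NAC13 (AT1G32870), a transcription factor of the mitochondrial stress response, held 24, 31 and 28 against 39, 39 and 215, with 1.54 and 1.08. All 3 were highest in the third cdca7α-1 library, which stood apart, and the other 2 cdca7α-1 libraries were also above every WT library.

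The 16 gene lists of leaf processes were counted in both comparisons, and the called genes in them were CDCA7α, AT1G64795 and MRD1, each of which was put into its list with its values known. In cdca7α-1, 1 of 20 tested genes of CG methylation and heterochromatin was higher at an unadjusted p under 0.05 (CDCA7α) and none was lower, with a median log2 difference of 0.06 against 0.00 over all features. H1.1, a linker histone, was at 186 to 206 CPM in WT and 204 to 259 in cdca7α-1 (log2 difference 0.22, SE 0.23). Of 16 genes of RNA-directed DNA methylation and demethylation none differed at that threshold, ROS1, a DNA demethylase that is itself sensitive to methylation, being at -0.31 (SE 0.29). A list of genes whose silencing can change with DNA methylation included AT1G64795 and MRD1 because of these data, so nothing is counted over it. Of its other members, QQS (AT3G30720), an orphan gene with a variably methylated promoter, had 9, 10 and 13 reads in WT and 2, 3 and 3 in cdca7α-1 (log2 difference -2.01, unadjusted p = 0.000732, not passing after adjustment). Salicylic acid defence genes had 1 of 15 higher (PR1) at a median of 0.41, and jasmonate, heat shock, clock, flowering, senescence, DNA damage, cell division, phosphate and flavonoid genes had none at that unadjusted threshold. Some members varied widely within groups, so a change in them could have been missed. CCA1, a clock gene named here for its values, had 1, 10 and 58 reads in WT and 35, 9 and 3 in cdca7α-1. The remaining lists had 2 of 10 cold and abscisic acid genes, RD29A (1.12, unadjusted p = 0.0409) and RAB18 (-0.97, unadjusted p = 0.033), 1 of 8 glucosinolate genes, MYB28 (-0.89, unadjusted p = 0.0347), and 1 of 6 iron genes, FER1 (0.94, unadjusted p = 0.0245). None of these 4 passed after adjustment, and 2.4% of all features had an unadjusted p under 0.05.

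In ddm1 cdca7α-1 against ddm1 the lists held no call, but more members passed the unadjusted threshold. In CG methylation and heterochromatin 4 of 20 were higher and 6 lower (median -0.23). The 4 higher were CDCA7α, listed with its value known, and the linker histones H1.1, H1.2 and H1.3. Among cell division genes 3 of 3 were lower (median -2.29). Over all features 11.9% passed that threshold in this comparison, and the median was 0.03. HTA6, a histone H2A variant of heterochromatin, held 106 and 128 reads in ddm1 and 17 and 21 in ddm1 cdca7α-1, against 9 to 15 in WT and 13 to 15 in cdca7α-1 (log2 difference -2.19, unadjusted p = 0.000314). MET1, which copies CG methylation, held 38 and 33 against 2 and 7, with 6 to 23 in WT and 8 to 13 in cdca7α-1 (log2 difference -2.49, unadjusted p = 0.0024). KNOLLE, a cytokinesis syntaxin, was at 6.03 to 6.43 CPM in ddm1 and at 1.38 to 1.72 in ddm1 cdca7α-1, against 0.287 to 0.573 in WT. For all 3 the ddm1 libraries were the ones that stood high, and MET1 and HTA6 were named after their values were seen. The mesophyll marker sum was 54394 to 70952 CPM in these ddm1 libraries and 20919 to 50603 in ddm1 cdca7α-1, against 9917 to 31004 in WT, and its part in these differences was not tested.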

How the data were processed

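The libraries were 3′-tag mRNA-seq of leaves from pools of plants, and the data were used as deposited. Per the labels and the study's methods, molecular identifiers were used to remove PCR duplicates before mapping with STAR (2.7.11a) to TAIR10 and counting with Salmon (1.10.1) on AtRTD3 transcripts and TAIR10 TEs, tools named in the submitters' processing notes. The deposited tables hold estimated counts made by the authors for the sense strand, without normalization, and the authors' RPM signal for both strands, each strand scaled on its own, so a small total raises a library's RPM. The second set of libraries, of single plants, was not used here, and 0 columns lacked a sample.

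Counts were summed over the transcripts of each locus and rounded to whole numbers (5.39% of the estimated counts were not whole). Of 68157 loci, 17943 reached 10 reads in 3 or more libraries and were tested with edgeR 4.0.16 in R 4.3.3 (TMM, quasi-likelihood), in 1 fit of 39 libraries in 16 genotypes whose common dispersion was 0.117. P-values were adjusted by Benjamini-Hochberg over all features, and a call needed an adjusted p of at most 0.1 and a change of at least 2-fold. Levels are CPM on TMM-scaled totals. Intervals of read ratios are exact at 95% and cover counting error only, and 0 reads allow up to 3. Tables were made in Python 3.11.15 with pandas 2.3.3. DESeq2 1.42.0 was an alternative, 1 of 23 alternatives and left-out libraries run.

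The named loci were those called in either comparison, CDCA7α and its neighbours, list members that were called and the 2 with the highest level in each list, and exceptions are marked in the text. The members and lists were chosen with earlier results of these data known. Names and coordinates came from RefSeq TAIR10.1 by locus tag, which named all 33991 nuclear gene loci. The count tables give no coordinates. The test was checked on simulated counts of cdca7α-1 against WT over 17303 features, where it called 8 of 50 genes changed 2-fold, 44 of 50 changed 4-fold and 49 of 50 changed 8-fold, with 17 false calls. The simulated counts held 200 changed features, many more than were called in the data, which makes the adjusted threshold easier to pass. These shares therefore need not hold for the data, where UGT74E2, at a log2 difference of 3.68, was not called.

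Replicates of a group differed by 17.4 to 70.6 times the sampling noise (chi-square per degree of freedom), so none was counted as a repeat of another.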

Additional observations from a re-analysis of the deposited data

Results flagged for a closer look

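The change in lines with the insertion differed between the WT and ddm1 backgrounds for MRD1 (difference of the log2 fold changes -5.04, adjusted p = 0.0246, edgeR with Benjamini-Hochberg adjustment). It also differed for AT5G24240 (-6.79, adjusted p = 0.000496, edgeR with Benjamini-Hochberg adjustment). In both, every cdca7α-1 library was below every WT library, with log2 fold changes of -3.82 and -6.24, and neither gene was called in ddm1, at 1.23 and 0.55. Neither difference passed when only the compared libraries were fitted (adjusted p = 0.752 for both, edgeR with Benjamini-Hochberg adjustment), nor did that of AT5G24240 with transcripts not summed (adjusted p = 0.887). The ddm1 reference was itself below WT, by log2 differences of -1.36 (MRD1) and -2.88 (AT5G24240), and its part in these differences was not tested. The double mutant came from a cross, so a state of these genes in the cdca7α-1 line need not be present in it.

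Reads on the strand opposite to a gene entered no comparison of the report. They were read at CDCA7α, the 10 genes on each side, the called loci, ILA and AT1G53490. SMP2 and ILA are given because every cdca7α-1 library lay above every WT library there. That separation was the rule of choice and is no test. Antisense RPM at SMP2 was 19.2, 12.9 and 14.5 in WT and 23.4, 37.2 and 86.3 in cdca7α-1, a mean of 49 against 15.5. In ddm1 it was 25.6 and 7.76, and in ddm1 cdca7α-1 53.1 and 29.7. The strand antisense to SMP2 is the strand CDCA7α is on. Antisense RPM at ILA was 4.79, 0 and 0 in WT and 19.5, 5.72 and 28.8 in cdca7α-1, a mean of 18, with 0 in both ddm1 libraries and 11.8 and 11.1 in ddm1 cdca7α-1. That strand is the one AT1G64795 is on. Of 11652 antisense loci, 275 (2.36%) had every cdca7α-1 library above every WT library, and 41 (0.352%) had this in both backgrounds. The smallest RPM above 0 was 0.854 to 2.95 over the libraries, which can be a part of a read, because the counts are estimated. In the first WT library the loci read here had values such as 4.79, 9.59 and 14.4, steps that 1 read would give. These are thus few reads, and no test was run.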

How the results depend on the processing

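No direction reversed in any alternative. Of the 7 calls in cdca7α-1, 6 remained with RLE size factors, 7 with upper-quartile factors or DESeq2, 5 in a test against 2-fold, and 2 (AT1G64795 and AT5G24240) when only the compared libraries were fitted, where CDCA7α was at 4.38 (adjusted p = 0.546, edgeR with Benjamini-Hochberg adjustment). The cause was not tested. With transcripts not summed the calls of CDCA7α (4.34, adjusted p = 0.208), AT5G24240 (-6.71, adjusted p = 1) and SOT12 (2.40, adjusted p = 0.356) were lost (edgeR, Benjamini-Hochberg). Without the low-count filter, cdca7α-1 gave 98 genes higher and 32 lower and 10 TEs higher, ddm1 cdca7α-1 gave 313 and 497, and 182 genes differed between the effects. DESeq2 gave 8 and 5 in cdca7α-1, 46 and 145 in ddm1 cdca7α-1 and 7 between the effects. With transcripts not summed, 1 gene was higher in cdca7α-1, 4 higher and 1 lower in ddm1 cdca7α-1, and 5 differed between the effects. With the mean of WT and both cdca7β lines as reference, 58 genes were higher and 23 lower, with 4 TEs higher and 0 lower, and the fit of only the compared libraries and the test against 2-fold also gave 0 TEs lower. With the mean of ddm1 of the 2nd and 1st generation as reference, 11 genes were higher and 9 lower in ddm1 cdca7α-1. The single gene higher there became 0 with RLE factors, only the compared libraries, an adjusted p of 0.05, the test against 2-fold and without organelle loci, and the count between the effects became 0 with only the compared libraries.

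The replicate numbers do not pair the samples: correlations of same-numbered deviations of cdca7α-1 and WT were -0.45, 0.24 and -0.43, while replicate 1 of cdca7α-1 correlated with replicate 3 of WT (0.50) and replicate 3 with replicate 1 (0.57). Nothing was paired anew. A replicate block left 7 of 7 calls in cdca7α-1 and 0 genes higher in ddm1 cdca7α-1. Leaving out single libraries gave 2 to 6 genes higher and 3 to 4 lower in cdca7α-1, 0 to 1 TEs lower, 0 to 3 genes higher in ddm1 cdca7α-1, and 1 to 3 genes differing between the effects. CDCA7α stayed at 3.84 to 5.57 in cdca7α-1, called in each of these 6 fits, and at 1.27 to 2.15 in ddm1 cdca7α-1, called in none of 4. Where a ddm1 or ddm1 cdca7α-1 library was left out, the remaining one was assumed to vary like the other groups. Depth limits the low genes: at 0 to 5 reads in WT, a fall of CDCA7α could not have been seen.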
